A study of Mus musculus with 4 samples.

Results

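The Fox genes of mouse spermatogonia were described from an RNA-seq table of 19991 genes. They were chosen by name alone, as symbols made of Fox, 1 subgroup letter and a number, with or without the ending of an antisense RNA, and 43 genes matched. They cover 17 subgroup letters and comprise 41 protein-coding genes and 2 antisense RNAs, Foxd2os and Foxl2os. The libraries came from spermatogonia grown from testes, wild type and of strain C57BL/6 by the labels, while the study's methods name DBA and DBA × GFP animals. All cells were grown in Stempro34 medium with growth factors. The 2 libraries of undifferentiated spermatogonia (SG) carry DMSO as their treatment, and the 2 libraries of differentiating spermatogonia (dSG) come from cells exposed to retinoic acid (RA) for 36 h. The dose of RA is 100 µM by the labels, whereas the methods give it in nM, and the treatment field of the labels names RA for all 4 samples. Whether replicates were separate cultures is not stated, and the p-values below therefore cover the scatter of these libraries alone, which could be technical. Fewer cells of a type and less RNA per cell cannot be told apart in such bulk samples.

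Forkhead box (Fox) proteins are transcription factors that bind DNA through a winged-helix domain, in which 1 helix lies in the major groove and reads the bases. The subgroup letters follow the sequence of this domain. Genes of the subgroups A, C, D, F and L are known as regulators of embryonic tissues and open closed chromatin in some of them, FOXO proteins are held in the cytoplasm when phosphorylated by AKT, FOXM1 drives the genes of the G2 and M phases, and FOXP proteins act mostly as repressors. In the mouse testis, FOXO1 is known to be needed for the maintenance of the spermatogonial stem cell, and RA starts the differentiation of spermatogonia.

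The coding bases of this helix are shown for 6 genes that were called lower in dSG (below) and for 3 genes of high level that were not called as the stretch of coding sequence behind the contact with DNA. Base differences between the members need not change the protein. Each window holds 45 bases of the longest GENCODE M21 transcript, 5′ to 3′, and the capitals mark the 15 bases from the asparagine codon of the helix (aspartate in Foxh1) to its histidine codon.
Foxc2: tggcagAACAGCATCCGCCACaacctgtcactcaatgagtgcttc
Foxd3: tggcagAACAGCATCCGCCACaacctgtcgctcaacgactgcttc
Foxl1: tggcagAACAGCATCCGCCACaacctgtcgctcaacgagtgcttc
Foxf1: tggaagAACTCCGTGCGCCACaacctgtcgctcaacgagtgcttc
Foxh1: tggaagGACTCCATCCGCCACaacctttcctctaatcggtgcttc
Foxp4: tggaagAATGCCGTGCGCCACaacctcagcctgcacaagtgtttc
Foxo3: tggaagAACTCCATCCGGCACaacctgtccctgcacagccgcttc
Foxk1: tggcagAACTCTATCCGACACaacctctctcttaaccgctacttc
Foxm1: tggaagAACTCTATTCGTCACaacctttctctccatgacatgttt
Such a window was found in 40 members, with 25 different runs of capitals. Foxc2, Foxd3 and Foxl1 had the same capitals as Foxd4, Foxe1 and Foxe3, and Foxf1 had the same as Foxf2 and Foxq1.

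The values are normalized counts, that is, reads of a gene divided by a size factor of the library. SG replicate 1 had 7484560 reads and the other libraries 22307745 to 26953654. SG replicate 1 stood apart in other ways too. The gene Lars2 took 18.3% of its reads and 3.66 to 5.60% in the others, and the SD over genes of the log2 difference between replicates was 0.81 in SG and 0.20 in dSG. The difference between the SG libraries followed the GC content of the transcript, with Spearman's rho of 0.73 over 14102 genes of these 2 libraries, against 0.28 in dSG. As a check of the labels, Kit, the receptor that marks differentiating spermatogonia, had 319 and 347 normalized counts in SG and 5825 and 5921 in dSG, Stra8 had 134 and 37.8 against 12205 and 12236, and Gfra1, the GDNF receptor of the undifferentiated cells, had 4491 and 4414 against 1667 and 1629.

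Of the 43 Fox genes, 28 had at least 20 normalized counts in at least 2 libraries and were tested with limma-trend across 14108 genes, at an adjusted p under 0.05. Foxa2, Foxc2, Foxd3, Foxf1, Foxh1, Foxi3, Foxl1 and Foxp4 fell in dSG. These 8 compare with 4.91% of all tested genes called lower. The count of members called higher was 0 (limma-trend), as it was at an unadjusted p under 0.05 and with edgeR and DESeq2, and 1.16% of all tested genes were called higher. A gene with under 20 normalized counts in both dSG libraries passed the filter through SG alone and had to differ between the groups. This holds for 7 of the 28, among them the called genes Foxd3, Foxh1 and Foxl1. Of the other 21 members, which had at least 20 normalized counts in a dSG library, 5 were called lower, beside 3.85% of all tested genes that met the same condition. Foxf1 is among these 5, but with 21.8 and 19.4 in dSG it too needed an SG library to pass the filter. The median log2 fold change of the 28 was -1.41 and that of all tested genes 0.01, and it is a description only, since the filter shapes it. Both dSG libraries lay below both SG libraries for 19 of the 28 (32.7% of all tested genes) and above them for 1, Foxn4 (33.2%). The filter fixed this separation for the 7 that passed through SG alone. It also fixed it for Foxn4, which passed through dSG alone. Without SG replicate 1, the library that stands apart, the log2 fold changes of the 8 ran from -4.20 (Foxf1) to -1.47 (Foxi3). Calls from a fit without an SG library are not read as support, because the spread is then taken from the dSG pair alone.

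**Figure D1:**
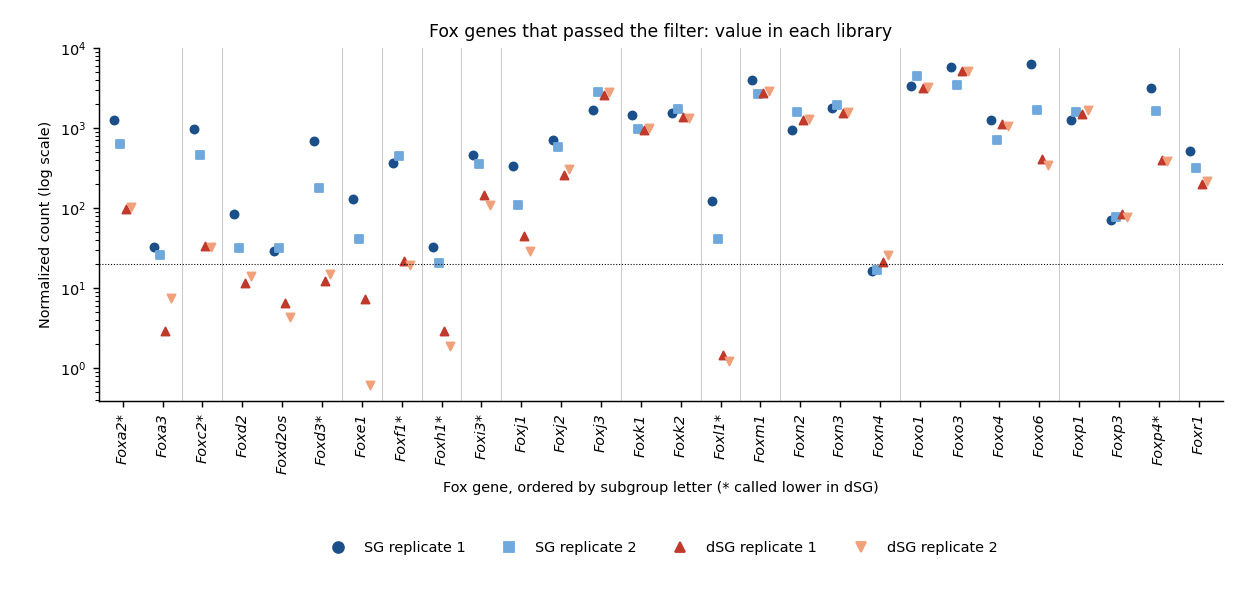
Normalized count (log axis) of the 28 tested Fox genes, ordered by subgroup letter, in each of the 4 libraries. The dotted line is the filter at 20 normalized counts, and an asterisk marks the 8 genes called lower in dSG, for each of which both red dSG points lie below both blue SG points.

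In the 1 genomic cluster with called members, all 3 Fox genes fell. Foxf1, Foxc2 and Foxl1 lie on the plus strand of chr8:121084386-121130644 (GRCm38), a stretch of 46.3 kb. Foxf1 (ENSMUSG00000042812) and Foxl1 (ENSMUSG00000097084) are known for their roles in the mesenchyme of the lung and gut, and Foxc2 (ENSMUSG00000046714) for vessel and lymphatic development.

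Foxf1 had 362 and 447 normalized counts in SG and 21.8 and 19.4 in dSG, and its log2 fold change was -4.05 ± 0.25 (SE, adjusted p = 0.0237). It was the only called gene that was lower in SG replicate 1 than in SG replicate 2, and its groups were far apart: SG replicate 2 was 20.5-fold above the higher dSG library. Foxc2 had 965 and 461 in SG and 34.1 and 33.2 in dSG (log2 fold change -4.16 ± 0.41, adjusted p = 0.0254). The dSG libraries of Foxc2 were nearly equal, while SG replicate 1 held 2.09 times the value of SG replicate 2. Foxl1 had 124 and 41.5 in SG and 1.45 and 1.25 in dSG, which are 38, 66, 2 and 2 reads (log2 fold change -3.83 ± 0.58, adjusted p = 0.0396). From summed reads, Foxl1 was 40.8-fold higher in SG than in dSG, with an exact 95% interval of 15.5 to 153 that covers counting error only.

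The neighbours of these 3 genes did not all move with them. Within 500 kb, 13 other genes are in the table, 9 were tested and 1 was called lower, beside 4.91% of all tested genes. This was Fendrr, a long non-coding RNA that starts 1.28 kb from Foxf1 on the opposite strand. Fendrr had 104 and 92.5 normalized counts in SG and 2.90 and 6.26 in dSG (log2 fold change -3.60 ± 0.34, adjusted p = 0.0254). Like Foxl1, Fendrr passed the filter through SG alone and so could only be lower in dSG. Mthfsd, which lies between Foxf1 and Foxc2 and is named for its folate synthetase domain, had 352 and 292 in SG and 144 and 152 in dSG, and was not called (log2 fold change -1.09 ± 0.22, adjusted p = 0.0684).

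The other Fox clusters held no member called by limma-trend. Foxq1, Foxf2 and Foxc1 on chr13:31556134-31812476, the counterpart of the chromosome 8 group, were all under the filter. Foxq1 had 13 and 4.40 in SG and 27.6 and 18.8 in dSG, the only one of the 3 with both dSG libraries above both SG libraries, but 66.1% of its exon bases overlap A530084C06Rik and its reads cannot be assigned with certainty. Foxf2 ranged from 0 to 3.15 normalized counts and Foxc1 from 9.44 to 32.6. On chr4:114906282-114926013, Foxd2 and its antisense neighbour Foxd2os were tested and not called, and Foxe3, a lens regulator, stayed at or under 3.26. Foxd2os had 29.3 and 32.1 in SG and 6.53 and 4.38 in dSG (log2 fold change -1.88 ± 0.33, adjusted p = 0.0510). Foxd2os was called lower by edgeR (adjusted p = 0.0363) and after a correction for GC content (0.0259), but not by DESeq2 (0.0569). It passed the filter through SG alone, so its groups could not overlap. Foxd2 had 84.7 and 31.5 in SG and 11.6 and 14.4 in dSG (log2 fold change -1.73 ± 0.53, adjusted p = 0.137). Foxd2 passed through SG alone as well. DESeq2 called it lower (adjusted p = 0.0462), but edgeR (0.114) and the GC correction (0.0732) did not. On chromosome 9, Foxl2, the ovarian granulosa regulator, and Foxl2os stayed at or under 6.52 normalized counts, and the exons of these opposite-strand genes overlap.

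**Figure D2:**
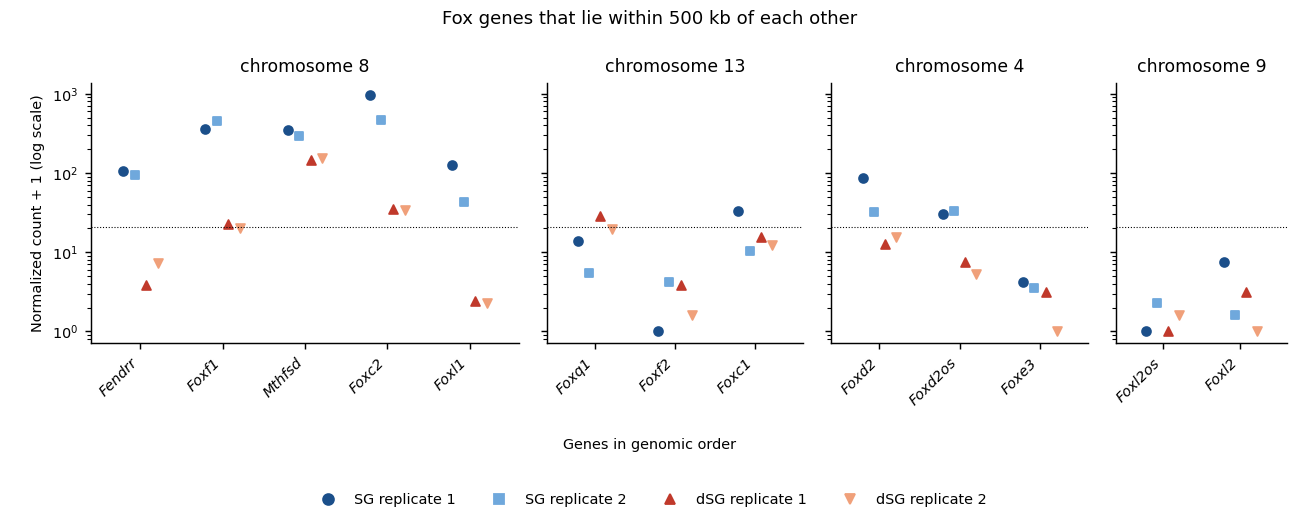
Normalized count + 1 (log axis) of the Fox genes in the 4 genomic clusters, in genomic order, in each library, with Fendrr and Mthfsd added on chromosome 8. The dotted line marks the filter at 20 normalized counts. All 3 Fox genes on chromosome 8 were called lower in dSG, while those on chromosomes 13 and 9 lay near or under the line.

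The remaining called genes stand alone in the genome. Foxa2 (ENSMUSG00000037025, chr2:148042877-148046969, minus strand), a pioneer factor of endoderm, had 1255 and 625 normalized counts in SG and 97.9 and 104 in dSG (log2 fold change -3.08 ± 0.39, adjusted p = 0.0307). Its relatives in subgroup A were far lower: Foxa3 had 32.6 and 25.8 in SG and 2.90 and 7.51 in dSG (log2 fold change -1.89 ± 0.41, adjusted p = 0.0751), and Foxa1 lay under the filter at 6.29 to 13. Per kb of merged exons, Foxa2 made up 96.4 and 94.8% of the level of subgroup A in SG and 91.5 and 87.7% in dSG.

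Foxd3 (ENSMUSG00000067261, chr4:99656299-99658622, plus strand), a factor of pluripotent and neural crest cells, had 688 and 177 normalized counts in SG and 12.3 and 15 in dSG (log2 fold change -4.33 ± 0.69, adjusted p = 0.0436). Of the 8 called genes it had the widest gap between the SG libraries, 3.89-fold, and SG replicate 2 was still 11.8-fold above the higher dSG library. Its subgroup relatives Foxd1 and Foxd4 had 0 to 5.03 normalized counts. The 250 bases before the start of Foxd3 (chr4:99656049-99656298, GRCm38.p6, RefSeq) are shown because, of the 4 called genes with a promoter entry, it alone has an E-box there, with the capitals on that motif.
Foxd3: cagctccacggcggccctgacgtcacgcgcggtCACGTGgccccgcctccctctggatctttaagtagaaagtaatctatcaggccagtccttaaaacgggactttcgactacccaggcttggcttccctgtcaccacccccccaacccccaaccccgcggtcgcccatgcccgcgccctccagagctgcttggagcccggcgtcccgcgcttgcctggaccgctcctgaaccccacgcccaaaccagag
The E-box CACGTG, read on both strands, occurs in 7.15% of 32851 RefSeq promoter windows of 300 bases, 250 before and 50 after a start, and in 1 of the 33 windows of the 28 Fox genes that have an entry. The core of RA response elements, AGGTCA, was in 5 of these 33 windows and 16.3% of all, and in no window of the called genes Foxa2, Foxd3, Foxi3 and Foxp4. A direct repeat of AGGTCA with 5 bases between was in 0 Fox windows and 0.00913% of all, and the forkhead motif TGTTTAC in 1 Fox window and 3.65% of all. CCAAT was in 14 Fox windows and 37.4% of all, and TATAAA in 3 and 13.6%. Fox windows held a median of 22 CpG, against 7 over all windows.

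Foxp4 (ENSMUSG00000023991, chr17:47867133-47924645, minus strand), a repressor of the FOXP subgroup, had 3142 and 1651 normalized counts in SG and 401 and 391 in dSG (log2 fold change -2.51 ± 0.35, adjusted p = 0.0350). It was the called gene with the most reads. Its relatives did not pass: Foxp1, known from B cells and heart, had 1248 and 1594 in SG and 1480 and 1694 in dSG (log2 fold change 0.17, 95% interval -0.41 to 0.74, adjusted p = 0.622). Foxp3, the factor of regulatory T cells, had 71.7 and 78.0 in SG and 84.1 and 77.6 in dSG (log2 fold change 0.11, adjusted p = 0.782), with 31.5% of its exon bases shared with other genes. Foxp2 lay under the filter at 6.52 to 15.2. Of the level of subgroup P per kb, Foxp4 made up 85.7 and 71.5% in SG and 39.1 and 36.1% in dSG.

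Foxi3 (ENSMUSG00000055874, chr6:70956531-70961066, plus strand), a factor of ectodermal organs such as tooth and ear, had 456 and 359 normalized counts in SG and 147 and 110 in dSG (log2 fold change -1.64 ± 0.27, adjusted p = 0.0455). This was the smallest fall among the called genes, and the other members of its subgroup were almost unread: Foxi1 ranged from 0 to 0.626 and Foxi2 from 0 to 1.88. The call of Foxi3 was lost without dSG replicate 1 (adjusted p = 0.127), without dSG replicate 2 (adjusted p = 0.363) and after a correction for GC content (log2 fold change -0.93, adjusted p = 0.0870). It was also lost with no filter on low values (adjusted p = 0.0608), a filter of 40 normalized counts in every library (0.0624) and array weights (0.0714). Foxh1 (ENSMUSG00000033837, chr15:76668225-76669948, minus strand), the partner of SMAD proteins in Nodal signalling, had 32.6 and 20.8 in SG and 2.90 and 1.88 in dSG (log2 fold change -2.24 ± 0.38, adjusted p = 0.0483). Only 7 reads lie behind its dSG values, and summed reads gave a ratio of SG over dSG of 9.64 with a counting interval of 4.30 to 25.4. Its call was lost without dSG replicate 1 (adjusted p = 0.176) and without dSG replicate 2 (adjusted p = 0.277). With all 4 libraries it was lost under quantile normalization (adjusted p = 0.0631), a pseudocount of 40 (0.0752) or 0.4 (0.0568) and array weights (0.131). Of the 5 tested genes of a list for FOXH1 and Nodal signalling, 0 were called by limma-trend, edgeR or DESeq2, and 0 had an unadjusted p under 0.05.

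**Figure D3:**
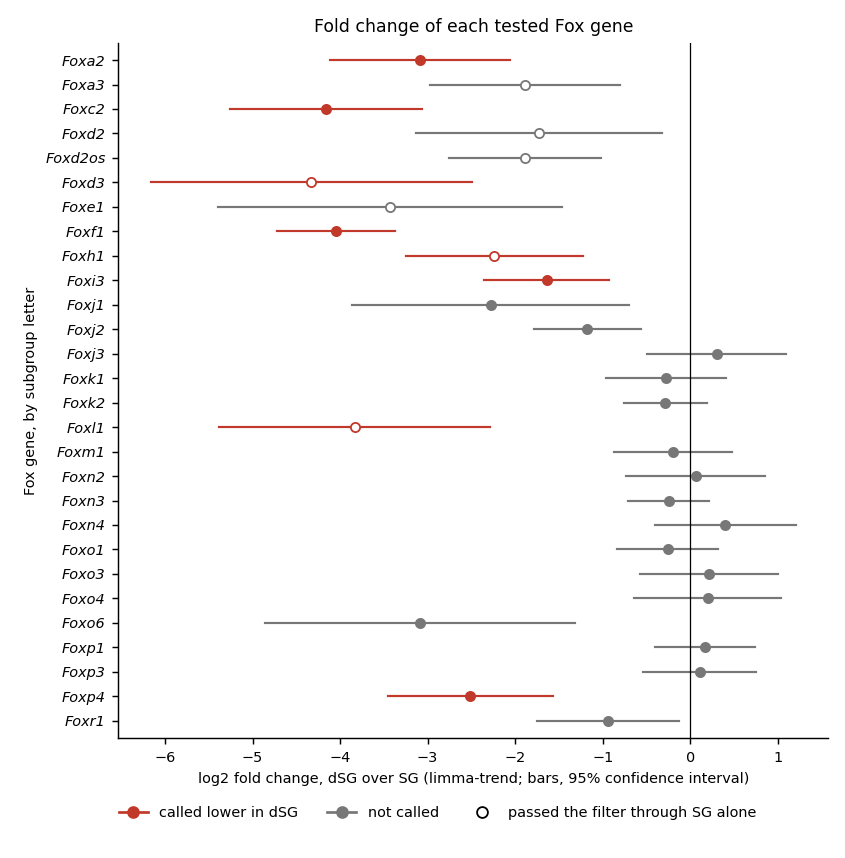
Log2 fold change, dSG over SG, of the 28 tested Fox genes in order of subgroup letter, with the 95% confidence interval of limma-trend. Red marks the 8 genes called lower, and open circles the 7 that passed the filter through SG alone. The intervals of subgroups K, M and N all include 0, and Foxo6 stands far to the left of the other FOXO genes.

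The FOXO genes were among the highest Fox genes per length. Foxo3 had a mean of 604 normalized counts per kb in SG and 679 in dSG, where it ranked highest of the family. Foxo3 had 5726 and 3427 normalized counts in SG and 5157 and 5126 in dSG (log2 fold change 0.21, 95% interval -0.58 to 1.01, adjusted p = 0.644), and both dSG values lay between the SG values. Foxo1 had 3308 and 4425 in SG and 3151 and 3258 in dSG (log2 fold change -0.26, 95% interval -0.83 to 0.32, adjusted p = 0.464), so that both dSG libraries lay just below the lower SG library. Foxo4 had 1242 and 714 in SG and 1108 and 1053 in dSG (log2 fold change 0.20, adjusted p = 0.693), again between the SG values.

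Foxo6, a FOXO gene known mainly from the brain, had the highest level per kb of the family in both SG libraries, and those libraries were far apart. It had 6322 and 1674 normalized counts in SG and 412 and 348 in dSG (log2 fold change -3.09 ± 0.67, 95% interval -4.86 to -1.32), and the adjusted p of 0.0751 missed the threshold. The groups did not overlap, since SG replicate 2 was 4.06-fold above the higher dSG library, but SG replicate 1 was 3.78-fold above SG replicate 2. Its transcript has 69.1% GC, a property that the difference between the SG libraries followed over all genes. Without SG replicate 1 its log2 fold change was -2.13. Foxo6 was called lower after the GC correction (log2 fold change -2.19, adjusted p = 0.00473) and by DESeq2 (adjusted p = 4.24e-10), but not by edgeR (adjusted p = 0.0577). Of the level of subgroup O per kb, Foxo6 made up 61.8 and 35.4% in SG and 10.4 and 8.94% in dSG. Over the whole family it made up 28 and 12.3% in SG and 4.49 and 3.78% in dSG, and the 8 called genes together 27.7 and 25.8% in SG and 7.61 and 6.74% in dSG. The 8 were picked as lower in dSG from these same libraries, so the drop in their joint share was fixed beforehand.

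**Figure D4:**
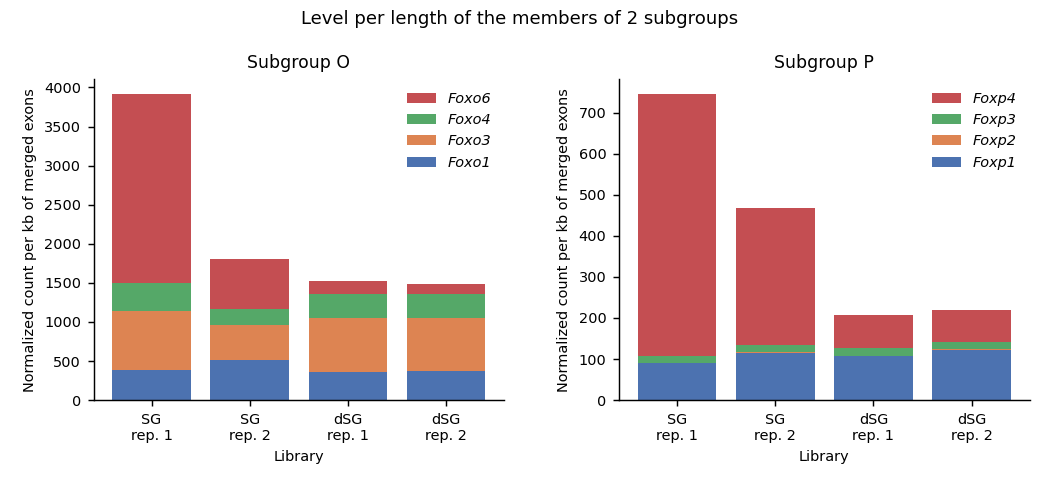
Normalized count per kb of merged exons of the members of subgroups O (left) and P (right), stacked for each library. Foxo6 (red, left) shrinks from 61.8 and 35.4% of its subgroup in SG to 10.4 and 8.94% in dSG, and Foxp4 (red, right) from 85.7 and 71.5% to 39.1 and 36.1%.

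Genes around the FOXO proteins were read from lists. Of 21 upstream genes of the PI3K and AKT pathway and of FOXO modification, all tested, 0 were called by limma-trend, edgeR or DESeq2, and 1 was lower and 1 higher at an unadjusted p under 0.05. Of 22 tested genes known as FOXO targets in somatic cells or the germ line, 5 were called lower and 0 higher by limma-trend, beside 4.91% and 1.16% of all tested genes. The counts were 5 and 0 with edgeR, 7 and 2 with DESeq2, and 9 and 4 at an unadjusted p under 0.05, where the 4 higher were Sesn3, Ccng2, Bcl2l11 and Bcl6. The median log2 fold change was -0.28 beside 0.01 over all tested genes. Lhx1, a homeobox gene of stem spermatogonia, had 6234 and 3741 in SG and 282 and 293 in dSG (log2 fold change -4.05, adjusted p = 0.0237), and Ret, the signalling GDNF receptor, had 17510 and 10011 against 2014 and 1985 (log2 fold change -2.72, adjusted p = 0.0276). Dusp4, an ERK phosphatase (log2 fold change -3.77, adjusted p = 0.0249), and Trib1, a pseudokinase (log2 fold change -2.64, adjusted p = 0.0255), fell as well, and the fifth was Cdkn1a, the cell cycle inhibitor p21.

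Foxm1, the G2 and M phase regulator, had 3960 and 2662 normalized counts in SG and 2774 and 2884 in dSG (log2 fold change -0.20, 95% interval -0.87 to 0.48, adjusted p = 0.617). The dSG values lay between the SG values. Of 20 tested genes known as its targets, 0 were called in either direction by limma-trend, edgeR or DESeq2, and 0 had an unadjusted p under 0.05 in limma-trend, with a median log2 fold change of -0.0011.

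Foxk1 and Foxk2, repressors that work with the SIN3 complex, were not called. Foxk1 had 1437 and 965 in SG and 943 and 1000 in dSG (log2 fold change -0.28, adjusted p = 0.501), and Foxk2 had 1558 and 1738 against 1356 and 1342 (log2 fold change -0.29, adjusted p = 0.344). Both dSG libraries lay below both SG libraries for Foxk2, and the groups of Foxk1 overlapped. Of their 5 listed partners 0 were called by limma-trend or edgeR, and 1 was lower by DESeq2 and at an unadjusted p under 0.05: Srf, the serum response factor, had 2708 and 1328 in SG and 593 and 506 in dSG. Of 6 listed FOXP partners, 1 was called lower, beside 4.91% of all tested genes. Nfatc2, a calcium-dependent factor that binds DNA beside FOXP3, had 3129 and 2306 in SG and 461 and 502 in dSG (log2 fold change -2.47, adjusted p = 0.0254). Of 3 tested partners of FOXL2 and FOXA, 1 was called higher, beside 1.16% of all tested genes. Esr1, the oestrogen receptor, had 29.3 and 27.1 in SG and 332 and 287 in dSG (log2 fold change 3.28, adjusted p = 0.0237).

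Subgroup J spanned both patterns. Foxj1, the master gene of motile cilia, had 332 and 111 in SG and 45 and 29.4 in dSG (log2 fold change -2.28 ± 0.60, adjusted p = 0.104), without overlap of the groups. Foxj2 had 717 and 578 against 258 and 310 (log2 fold change -1.18 ± 0.23, adjusted p = 0.0641), also without overlap. Foxj1 and Foxj2 were called lower by DESeq2 (adjusted p = 0.000184 and 0.0133) and after the GC correction (0.0285 and 0.0266). With edgeR they were not called (adjusted p = 0.0843 and 0.0510). Foxj3 had 1691 and 2819 against 2574 and 2818 (log2 fold change 0.30, adjusted p = 0.524), and its groups overlapped. Of 5 tested markers of multiciliated cells, 0 were called by limma-trend or edgeR and 1 was higher by DESeq2, and 1 was lower and 1 higher at an unadjusted p under 0.05.

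In subgroup N, Foxn2 had 952 and 1581 in SG and 1273 and 1285 in dSG (log2 fold change 0.06, adjusted p = 0.904). After the GC correction the sign of Foxn2 turned and it was called lower (log2 fold change -0.59, adjusted p = 0.0405). Foxn3, a checkpoint suppressor, had 1773 and 1922 against 1540 and 1571 (log2 fold change -0.25, adjusted p = 0.389), and Foxn4, a regulator of retinal progenitors, had 16.3 and 17.0 against 21 and 25.7 (log2 fold change 0.40, 95% interval -0.40 to 1.21, adjusted p = 0.416). Foxn1, the thymus epithelial factor, ranged from 0 to 3.15. Foxr1 had 515 and 316 in SG and 201 and 216 in dSG (log2 fold change -0.94 ± 0.31, adjusted p = 0.151). Foxe1, the thyroid factor, had 130 and 40.9 in SG and 7.25 and 0.626 in dSG (log2 fold change -3.43 ± 0.74, adjusted p = 0.0751), and its 1 read in dSG replicate 2 makes the size of this value uncertain. Foxe1 passed the filter through SG alone. It was called lower by DESeq2 (adjusted p = 2.41e-05) and after the GC correction (0.0274), but not by edgeR (0.0813).

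The 10 genes with more than 700 normalized counts in every library, a limit set after the values were seen, were Foxj3, Foxk1, Foxk2, Foxm1, Foxn2, Foxn3, Foxo1, Foxo3, Foxo4 and Foxp1, and 0 of them were called by limma-trend, edgeR or DESeq2. Their log2 fold changes lay between -0.29 and 0.30 with adjusted p from 0.344 to 0.904, and their 95% intervals reached from -0.97 to 1.10. The 15 members under the filter included Foxa1, Foxc1, Foxd1, Foxd4, Foxe3, Foxf2, Foxi1, Foxi2, Foxl2, Foxl2os, Foxn1, Foxp2, Foxq1 and Foxr2. Their highest single value was 32.6 (Foxc1 in SG replicate 1), and 5 of them had at most 3 reads in every library. At this depth 3 reads correspond to 9.78 normalized counts in SG replicate 1 and 1.88 to 2.18 in the others. Both dSG libraries lay above both SG libraries for 4 of the 15, among them Foxr2 with 9.78 and 6.29 in SG and 15.2 and 16.9 in dSG. They lay below them for 3 of the 15. The shares over all genes under the filter were not computed, and no direction is read from these counts.

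The GC content of the longest transcripts of the called genes had a median of 60.6% (54.4 to 65.1%), beside 55.2% over the 28 tested Fox genes and 49.9% over all tested genes. The called gene Foxf1 (54.4%) lay below the median of the 28, and Foxo6 (69.1%), Foxe1 (62.8%), Foxd2 (62.7%) and Foxj1 (61.4%), which were not called, lay above that of the called genes. SG replicate 1 was above SG replicate 2 for 7 of the 8 called genes, for 18 of the 28 and for 54.7% of all tested genes. When the GC trend of each library was removed, 13 Fox genes were called lower (12.8% of all tested genes), 7 of the 8 among them and Foxi3 not. With edgeR on the recovered reads 9 Fox genes were called lower (6.00% of all), and with DESeq2 13 (10.4%), each with all 8 of limma-trend.

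**Figure D5:**
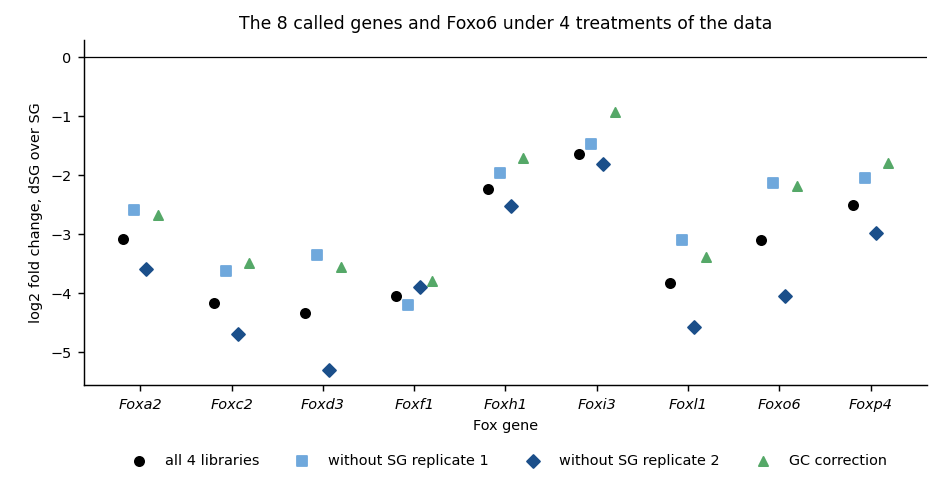
Log2 fold change, dSG over SG, of the 8 called genes and Foxo6 with all 4 libraries, without each SG library in turn and after correction for GC content. All points lie below 0. The value without SG replicate 2 is the most negative for each gene except Foxf1, and Foxi3 lies nearest to 0 after the GC correction at -0.93.

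Markers of other cells moved too. The calls below are by limma-trend, which called 4.91% of all tested genes lower and 1.16% higher. Of 8 tested fibroblast and mesenchymal markers, 2 fell and 0 rose: Pdgfra had 2229 and 2298 in SG and 345 and 349 in dSG, and Thy1 fell as well, though it also marks undifferentiated spermatogonia. The sum over the 16 listed markers was 15623 and 11249 in SG and 5381 and 5436 in dSG. Much of it came from 2 genes that were not called. Fn1 had 6808 and 6891 against 4363 and 4500 (adjusted p = 0.106), and Col1a1 had 5635 and 1459 against 395 and 296 (adjusted p = 0.0794). In every library 7 of the 16, among them Dcn, Lum, Col3a1 and S100a4, were under 20 normalized counts. All 5 tested epithelial markers fell, Epcam and Cdh1, which undifferentiated spermatogonia also express, among them. The sum over the list was 4794 and 4156 against 1785 and 1702, and most of it was Epcam (3578 and 3526 against 1664 and 1572). Krt8 led with 280 and 105 against 3.63 and 3.76, but it passed the filter through SG alone. Krt14 stayed at or under 1.45. Of 8 tested Sertoli markers 2 fell, Sox9 and Inhbb (sum 1118 and 646 against 384 and 388), with Fshr at or under 0.626. Of 5 endothelial markers 2 fell, Pecam1 and Vwf (sum 544 and 571 against 215 and 248), with Emcn at or under 0.725. Of the 2 to 3 tested Leydig, peritubular myoid and blood markers, 0 were called by limma-trend, edgeR or DESeq2, and 1, Des, was lower at an unadjusted p under 0.05. The part of these cells in the falls of Foxf1, Foxc2, Foxl1, Foxa2 and the other called Fox genes was not tested. Of 14 tested germ cell markers, 1 (Gfra1) was called lower and 2 (Kit and Stra8) higher, with a median log2 fold change of 0.08. The 15 listed ones summed to 57650 and 55581 in SG and 66412 and 69604 in dSG. That sum holds the rises of Stra8 (134 and 37.8 in SG, 12205 and 12236 in dSG) and Kit (319 and 347, 5825 and 5921). It is therefore no measure of germ cell content.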

How the data were processed

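RNA-seq of 2 SG and 2 dSG libraries was used. The authors extracted total RNA, prepared directional paired-end libraries, aligned them to GRCm38 with Subread and counted per gene with featureCounts 1.5.3, which the submitters' processing notes list together with DESeq2. The annotation release and the strand setting were not stated. The deposited signal is a normalized count, reads divided by a library size factor, although the table is named as RPKM. Dividing by the value of 1 read gave whole reads for 100% of values at a tolerance of 0.01. The authors' comparison columns (mean, log2 fold change, its error, test statistic and p-values) were not used.

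Limma-trend (limma 3.58.1, R 4.3.3) was run on log2(normalized count + 4) with condition as the only term, over 14108 genes with at least 20 in at least 2 libraries, and p-values were adjusted over all of them by Benjamini-Hochberg. Fold changes are on that scale and understate those of low genes. The steps were tested on simulated data. Positions, exon lengths and GC content are from GENCODE M21 (19975 of 19991 IDs matched), and promoters from RefSeq. Levels between genes were compared per kb of merged exons. Clusters are members within 500 kb of each other. Alternatives were quantile, upper quartile, TMM and median scaling, other filters and pseudocounts (40 and 0.4), no trend, array weights, edgeR 4.0.16 and DESeq2 1.42.0 on recovered reads, a loess correction for GC content, leaving out each library, and a replicate block. Members are named except an item that is not reported here, with values where a member was called, lies in a cluster or belongs to subgroups O, K, P, M or J, and from each list up to 4 called genes with the smallest p are named. The members and lists were chosen with earlier results of these data known, and the study itself displayed Fox genes from these samples, so no list is independent evidence.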

Additional observations from a re-analysis of the deposited data

How the results depend on the processing

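Foxa2, Foxc2 and Foxf1 were called lower under all the alternatives in which they could be tested (19 for Foxa2, 18 for the others), while Foxd3 was lost with no filter (adjusted p = 0.0536) and a pseudocount of 40 (0.0713), Foxl1 with that pseudocount (0.0883) and Foxp4 with the stricter filter (0.0502). The 8 lower Fox genes became 1 with a filter of 40 in every library, which leaves out genes low in dSG, 5 with a pseudocount of 40, and 13 with DESeq2 and with the GC correction. Leaving out 1 library gave 8 to 22 lower and 0 to 3 higher Fox genes. The high counts came without an SG library (20 lower without SG replicate 1, 22 without SG replicate 2), when the lone SG library is assumed to vary as little as the dSG pair. Over all genes, 692 were called lower and 164 higher, and leaving out 1 library gave 434 to 6021 and 41 to 5431. These counts were 273 and 47 with the stricter filter, 1468 and 468 with DESeq2 and 1801 and 921 with the GC correction, while 108 were higher with no filter and 304 with array weights. The Fox median of -1.41 became -0.30 with no filter, -0.26 with the stricter filter, -0.64 with a pseudocount of 40 and -0.91 with the GC correction, and -1.57 to -1.04 without 1 library. No sign of a gene called with all 4 libraries turned. With the GC correction the log2 fold changes were 0.087 (Foxk1), 0.065 (Foxm1), -0.59 (Foxn2) and -0.19 (Foxp1). Without 1 library they ran from -0.066 to 0.67 (Foxj3), -0.56 to 0.0087 (Foxk1), -0.48 to 0.087 (Foxm1), -0.30 to 0.42 (Foxn2), -0.16 to 0.58 (Foxo3), -0.20 to 0.59 (Foxo4) and -0.0092 to 0.34 (Foxp1), and the turns came without SG replicate 2 for Foxo3 and Foxo4 and without SG replicate 1 for the others. The cause of these changes was not tested. Same-numbered libraries had deviations correlated at 0.23, and with 2 pairs and no label to tie them they share only a number. With the replicate block, 15 Fox genes were lower (all genes 1790 lower and 1150 higher). With the replicate block and the GC correction, 17 were lower (all genes 2746 and 1676), the median was -0.91, and Foxk1, Foxm1, Foxn2 and Foxp1 were at 0.087, 0.065, -0.59 and -0.19. In SG replicate 1, 1 read is worth 3.26 normalized counts, and 0.626 to 0.725 in the others.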
